A study of Mus musculus with 8 samples.

Results

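Ung, Apex1, Apex2, Msh6, Exo1, Polh, Trp53bp1 and Rev1 encode enzymes and scaffolds that act after activation-induced cytidine deaminase (AID) has made a lesion in an immunoglobulin gene. They were taken by name, as 8 of the 32285 genes in the expression matrices, and all 8 were detected in every library. They were measured across B cell states, cycling cells and T cells of mouse deep cervical lymph nodes, the nodes that drain the brain and its coverings.

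The nodes came from C57BL/6 mice at day 20 after an intracranial injection, and live immune cells were sorted from them for single-cell RNA sequencing. In 2 libraries the mice carried GL261, a mouse glioma line, and had been given anti-CD20, an antibody that removes B cells, together with anti-CTLA-4 or with isotype IgG (depleted anti-CTLA-4 and depleted isotype). In 2 further libraries the mice carried GL261 with B cells left in place and received anti-CTLA-4, a blocking antibody to a T cell inhibitory receptor, or isotype IgG. The fifth library came from mice injected with DPBS, a buffered saline, in place of tumour cells, and is called the saline control. The labels give neither the number of mice behind a library nor their age, and each condition is 1 library, so the spread between mice of a condition was not measured and no p-value is given between conditions.

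AID deaminates cytosines to uracils in the variable and switch regions of immunoglobulin genes in activated B cells, above all in germinal centres, where B cells divide and mutate their receptors. UNG cuts the uracil out and APEX1 or APEX2 nicks the abasic site that is left, or MSH6 recognises the U:G mismatch and EXO1 resects the strand, after which translesion polymerases such as Pol eta (Polh) and REV1 fill in across the lesion and leave mutations. In switch regions the nicks become double-strand breaks, and 53BP1 (Trp53bp1) protects their ends so that they are joined to a new constant region. Most of these proteins also serve ordinary replication and repair in any dividing cell.

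Ung and Msh6 were higher in cycling cells of both lineages under the stricter of the gates described below, as was Polh. Polh and Rev1 were highest in germinal centre B-like cells with no overlap of the next class, and Msh6 had its highest mean there too. The start-site regions of these 4 genes are printed here. They run from 250 bases before to 50 bases after a start in RefSeq (GRCm38.p6), on the gene's own strand. The windows are chr5:114130185-114130484 (plus) for Ung, chr17:87974800-87975099 (plus) for Msh6, chr17:46202592-46202891 (minus) for Polh and chr1:38129617-38129916 (minus) for Rev1. For Msh6 and Polh the start used is the outer end of the gene. The genes Ung and Rev1 reach out to chr5:114130366 and chr1:38129921, so the starts used for them lie inside the gene. The Rev1 window lies wholly within its gene. Capitals mark matches to 3 motifs searched on both strands.
Ung: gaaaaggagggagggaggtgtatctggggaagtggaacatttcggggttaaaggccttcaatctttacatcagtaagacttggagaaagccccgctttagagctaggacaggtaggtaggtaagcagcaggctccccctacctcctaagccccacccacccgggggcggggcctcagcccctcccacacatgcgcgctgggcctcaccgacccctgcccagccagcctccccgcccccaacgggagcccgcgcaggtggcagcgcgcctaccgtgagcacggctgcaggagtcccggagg
Msh6: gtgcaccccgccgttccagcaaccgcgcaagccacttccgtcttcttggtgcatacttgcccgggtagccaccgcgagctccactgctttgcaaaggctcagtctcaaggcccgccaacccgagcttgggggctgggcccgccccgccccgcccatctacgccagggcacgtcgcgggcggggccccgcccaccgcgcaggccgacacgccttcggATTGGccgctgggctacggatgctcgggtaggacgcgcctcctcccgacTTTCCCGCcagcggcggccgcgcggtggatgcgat
Polh: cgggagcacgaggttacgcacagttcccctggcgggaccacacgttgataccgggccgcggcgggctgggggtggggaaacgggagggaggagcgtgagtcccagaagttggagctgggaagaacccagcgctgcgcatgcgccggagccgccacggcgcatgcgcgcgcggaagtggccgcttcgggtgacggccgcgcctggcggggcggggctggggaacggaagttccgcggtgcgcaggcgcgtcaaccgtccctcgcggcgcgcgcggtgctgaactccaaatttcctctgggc
Rev1: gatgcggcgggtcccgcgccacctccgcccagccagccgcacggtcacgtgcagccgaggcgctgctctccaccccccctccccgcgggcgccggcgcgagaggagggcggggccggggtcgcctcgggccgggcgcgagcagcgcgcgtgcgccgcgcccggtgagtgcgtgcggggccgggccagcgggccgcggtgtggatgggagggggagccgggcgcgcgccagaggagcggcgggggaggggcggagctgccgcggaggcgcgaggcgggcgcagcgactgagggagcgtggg

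The motifs were the E2F site (TTTCCCGC, TTTGGCGC, TTTCGCGC or TTTGCCGC), the cell cycle homology element TTTGAA and CCAAT, and no match overlapped another. Msh6 held TTTCCCGC at positions 266 to 273 and CCAAT on the opposite strand at positions 217 to 221, which reads as ATTGG above. Apex1, not printed, held CCAAT at positions 206 to 210 and 263 to 267. Ung, Polh, Rev1 and Trp53bp1 held none of these letters in this window. For Trp53bp1, as for Ung and Rev1, the start used lies inside the gene. Its window was chr2:121271358-121271657 (minus), and the gene reaches out to chr2:121296354. The outer ends of Trp53bp1 and Rev1 were therefore not searched. Of 32851 mouse promoters of the same length, 2.26% held an E2F site, 17.9% TTTGAA and 37.4% CCAAT. The table held promoters for 6 of the 8 genes, and Apex2 and Exo1 were the others.

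Each library held 54715065 to 63497466 unique molecular identifiers (UMIs, counted RNA molecules) over 9014 to 11791 cell barcodes, of which 8302 to 10598 were kept. Ms4a1, the gene for CD20, stood at 10.1 and 7.83 CPM (counts of a gene per 1000000 UMIs of the cells summed) in the depleted anti-CTLA-4 and depleted isotype libraries and at 291, 250 and 278 CPM in the anti-CTLA-4, isotype and saline control libraries. Between 109 and 164 barcodes were shared by each pair of libraries. Cells were clustered and named from marker genes, and counts were summed over the cells of a class within a library before any level was computed. Intervals given with levels and ratios are exact 95% intervals that cover counting error only. The germinal centre B-like class held 39, 21, 158, 63 and 25 cells in the depleted anti-CTLA-4, depleted isotype, anti-CTLA-4, isotype and saline control libraries, with all 9 germinal centre markers above 0 and those markers summing to 1698 to 2690 CPM. Those germinal centre sums compare with 133 to 147 CPM in follicular B-like cells. Median UMIs per cell in this class were 9282 to 16821, against 3365 to 3851.5 in follicular B-like cells, and the part of this depth gap in the differences below was not tested.

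Across 16 classes of cells, each gene kept its own order. Polh averaged 71.8 ± 15.8 CPM in germinal centre B-like cells (SD, n = 5 libraries), with 70.7, 69.7, 94.8, 73.3 and 50.4 CPM in the depleted anti-CTLA-4, depleted isotype, anti-CTLA-4, isotype and saline control libraries. The next class was Mki67-high T cells at 20.9 ± 5.1 CPM (SD, n = 4), and the third, interferon-exposed B-like cells, was at 11.1 ± 2.0 CPM (SD, n = 3). Germinal centre B-like and Mki67-high T cells did not overlap the class after them, and from the third class on neighbours in the order overlapped down to the dendritic-like cells at 4.20 CPM, except between recently activated B-like and plasma cell-like cells. Rev1, whose product adds cytidine opposite abasic sites, averaged 93.8 ± 9.9 CPM in germinal centre B-like cells (SD, n = 5), with 108, 85.5, 93.0, 84.1 and 97.7 CPM in the same library order. All 5 lay above every library of follicular B-like cells (36.0 ± 3.4 CPM, SD, n = 3) and Srm-high B cells (36.0 ± 4.3 CPM, SD, n = 3), which overlapped each other. In Mki67-high T cells Rev1 stood at 15.7 ± 5.3 CPM (SD, n = 4), among the lowest classes, where Polh was second in the order.

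Ung and Apex1, which start the excision of uracil and its abasic site, were ordered in another way. Apex1 averaged 157.8 ± 5.8 CPM in Srm-high B cells (SD, n = 3), a class led by genes of biosynthesis, and no library of another class reached it. Germinal centre B-like cells followed at 66.4 ± 23.8 CPM (SD, n = 5) and Mki67-high T cells at 62.7 ± 20.7 CPM (SD, n = 4), which overlapped. Ung averaged 44.6 ± 12.4 CPM in Srm-high B cells (SD, n = 3), 41.4 ± 12.6 CPM in Mki67-high T cells (SD, n = 4) and 26.2 ± 4.6 CPM in germinal centre B-like cells (SD, n = 5), and each of these overlapped its neighbour. Follicular B-like cells held 9.57 ± 0.82 CPM of Ung (SD, n = 3). Apex2, a relative of Apex1, averaged 25.7 ± 7.9 CPM in germinal centre B-like cells (SD, n = 5), 21.7 ± 3.9 CPM in Mki67-high T cells (SD, n = 4) and 18.2 ± 3.4 CPM in Treg-like cells (SD, n = 5), all overlapping.

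Of the mismatch branch, Exo1 was highest in the dividing classes. It averaged 18.2 ± 3.3 CPM in Mki67-high T cells (SD, n = 4) and 13.7 ± 4.0 CPM in germinal centre B-like cells (SD, n = 5), which overlapped, against 0.898 ± 0.145 CPM in follicular B-like cells (SD, n = 3) and 0.512 ± 0.376 CPM in conventional CD4 T cells (SD, n = 5). In ILC-like and plasmacytoid dendritic-like cells 0 UMIs of Exo1 were counted, which allow up to 8.17 to 23.7 CPM by library. Msh6 averaged 51.3 ± 29.1 CPM in germinal centre B-like cells (SD, n = 5) and was the most uneven member there, with 23.6, 38.0, 60.1, 37.1 and 97.7 CPM in the depleted anti-CTLA-4, depleted isotype, anti-CTLA-4, isotype and saline control libraries, so that its range covered that of Mki67-high T cells (34.8 ± 8.5 CPM, SD, n = 4) and follicular B-like cells (29.3 ± 3.1 CPM, SD, n = 3). Trp53bp1 ran the other way. It was highest in ILC-like cells (46.5 ± 11.9 CPM, SD, n = 3, from 20 UMIs in all) and NK-like cells (36.1 ± 10.3 CPM, SD, n = 5), stood at 28.5 ± 2.5 CPM in follicular B-like cells (SD, n = 3), and was next to last in germinal centre B-like cells at 20.5 ± 5.2 CPM (SD, n = 5). Plasma cell-like cells were last for Ung, Apex1, Apex2, Msh6, Rev1 and Trp53bp1, while their Exo1 stood at 5.67 ± 2.72 CPM (SD, n = 2, from 10 UMIs), below Mki67-high T and germinal centre B-like cells and above the other classes by its mean.

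**Figure D1:**
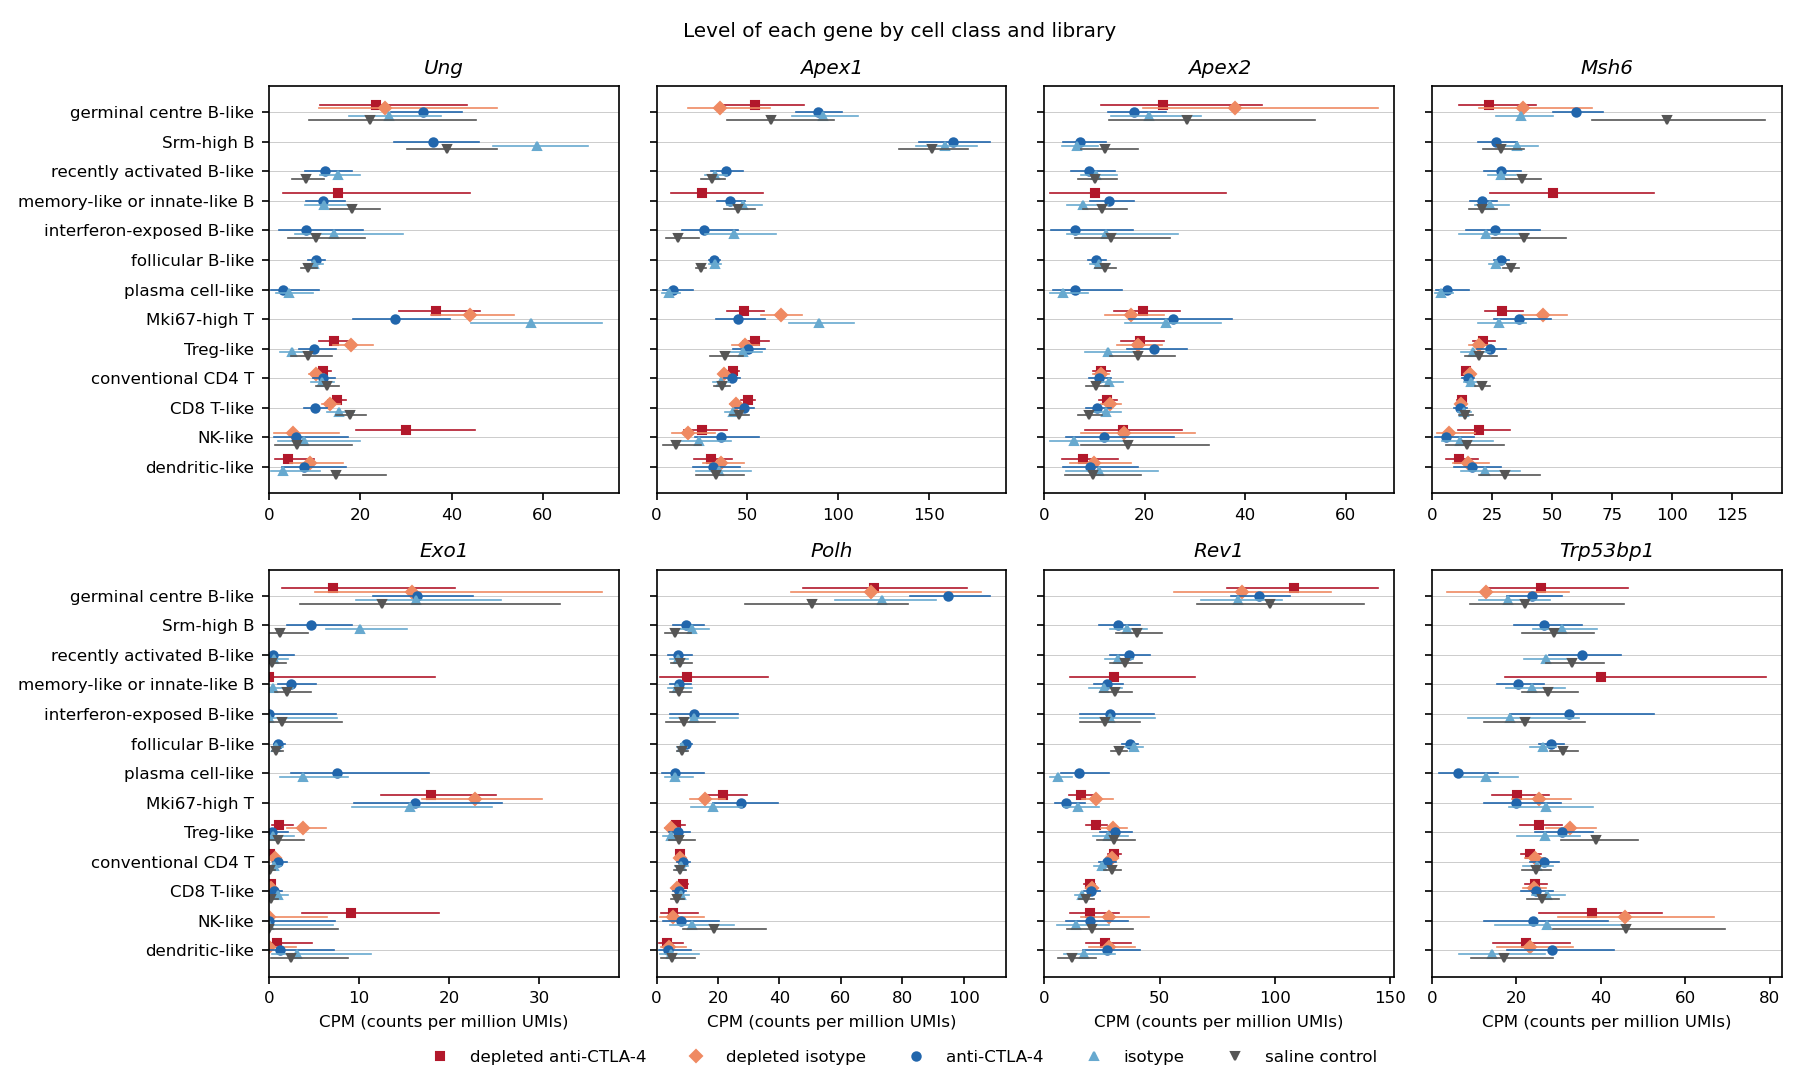
Level of each of the 8 genes in CPM (horizontal axis, linear) in 13 cell classes (vertical axis), with a point for each library with at least 20 cells of the class and a bar for its exact 95% counting interval. Polh and Rev1 points of germinal centre B-like cells stand right of all other classes, Apex1 peaks in Srm-high B cells, and most Exo1 points outside germinal centre B-like, Srm-high B, plasma cell-like and Mki67-high T cells lie near 0, with NK-like cells of the depleted anti-CTLA-4 library at 9.16 CPM.

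Set against follicular B-like cells of the same library, germinal centre B-like cells were at least 1.5-fold higher in all 3 libraries that held both classes for 6 of the 8 genes, and at least 1.5-fold lower in all 3 for none. Of the 10416 genes compared, 17.0% were this much higher in all 3 and 14.2% this much lower. Polh was 9.88-fold higher in the anti-CTLA-4 library (95% interval 7.85 to 12.5), 8.95-fold in the isotype library (6.55 to 12.2) and 6.08-fold in the saline control library (3.34 to 10.4). Exo1 was 15.5-fold, 20.1-fold and 15.4-fold higher in the same order, from 4 against 9 UMIs in the saline control library, too few to enter the share over all genes. Ung was 3.30-fold, 2.67-fold and 2.55-fold higher, although the saline interval (0.998 to 5.46) took in 1. Rev1 ran 2.52-fold, 2.17-fold and 3.03-fold higher, Apex1 2.79-fold, 2.86-fold and 2.59-fold, and Apex2 1.72-fold, 1.91-fold and 2.34-fold. Msh6 passed the fold in the anti-CTLA-4 (2.09-fold) and saline control (2.99-fold) libraries and missed it in the isotype library (1.39-fold). Trp53bp1 lay at 0.839, 0.691 and 0.710 of the follicular level. Because classes were built from the same cells, these ratios describe the class and are given with no test.

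Srm-high B cells set against follicular B-like cells showed a narrower pattern. Apex1 was 5.14-fold, 4.97-fold and 6.24-fold higher in the anti-CTLA-4, isotype and saline control libraries, and Ung 3.50-fold, 5.99-fold and 4.52-fold. These were the 2 members at least 1.5-fold higher in all 3 libraries, where 11.3% of 10407 genes were this much higher and 14.3% this much lower. Polh stood at 0.726 to 1.40 and Rev1 at 0.860 to 1.25 of the follicular level, so the polymerase pair did not share the pattern of the excision pair. Plasma cell-like cells, with 2 libraries of enough cells, were at least 1.5-fold below follicular B-like cells in both for Ung, Apex1, Apex2, Msh6, Trp53bp1 and Rev1, where 59.5% of all genes were. Exo1 stood 7.12-fold and 4.62-fold above, from 10 plasma cell-like UMIs in all. Follicular B-like cells themselves held more Msh6 than conventional CD4 T cells of the same library, at 1.94-fold, 1.66-fold and 1.58-fold in the anti-CTLA-4, isotype and saline control libraries, the 1 member past the fold in all 3 against 18.5% of genes.

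Germinal centre B-like cells were also set against Mki67-high T cells, the class of dividing T cells, in the 4 libraries with both. Polh was 3.25-fold, 4.38-fold, 3.44-fold and 4.01-fold higher in the depleted anti-CTLA-4, depleted isotype, anti-CTLA-4 and isotype libraries. Rev1 was 6.82-fold, 3.81-fold, 9.78-fold and 5.69-fold higher. No other member was past 1.5-fold in the same direction in all 4, and across all genes 8.48% were this much higher in all 4 and 9.37% this much lower. Mki67-high T cells set against conventional CD4 T cells held more Exo1, Ung, Polh, Msh6 and Apex2 in all 4 libraries, at 15.7-fold to 98.5-fold for Exo1, 2.31-fold to 4.93-fold for Ung, 2.08-fold to 3.21-fold for Polh, 1.74-fold to 2.92-fold for Msh6 and 1.54-fold to 2.36-fold for Apex2. These 5 of 8 compare with 17.9% of genes this much higher in all 4 and 9.59% this much lower. Rev1 stood at 0.350 to 0.763 of the CD4 level in the same cells.

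**Figure D2:**
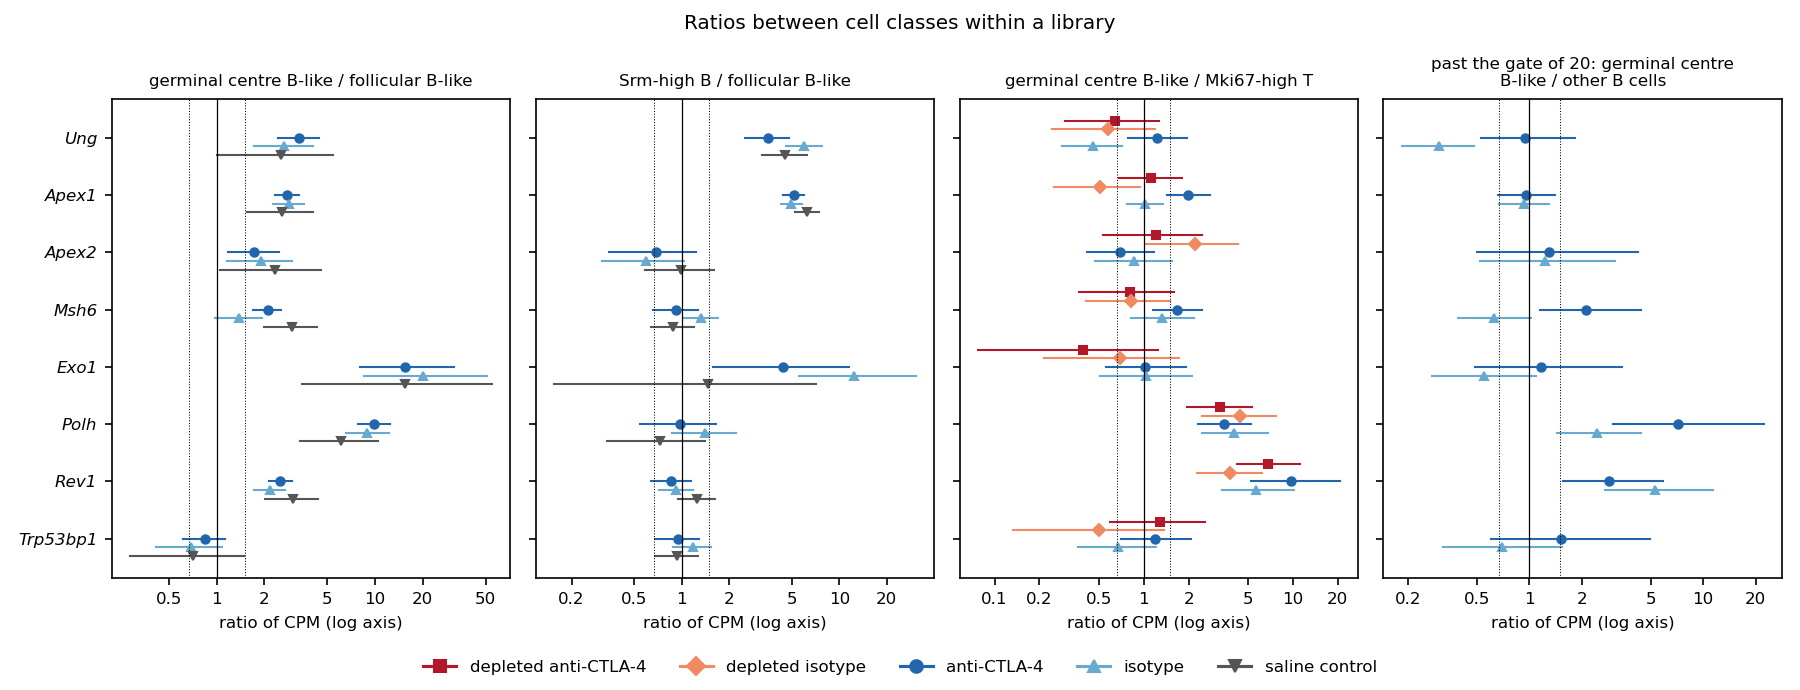
Ratio of CPM between cell classes within a library (log axis) for each gene, with exact 95% counting intervals, a solid line at 1 and dotted lines at 1.5-fold either way. The panels set germinal centre B-like over follicular B-like cells, Srm-high B over follicular B-like cells, germinal centre B-like over Mki67-high T cells, and germinal centre B-like over other B cells among cells past the cycling gate of 20. Ratios with no UMI on 1 side are not drawn. Polh and Rev1 lie right of the dotted line in the 3 panels with germinal centre B-like cells, and Apex1 and Ung do so in the Srm-high panel.

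Whether these genes follow division or the germinal centre was asked with cells called cycling from 39 S and G2/M phase genes, none of them a member. In the wide gate, set by the design, a cell was cycling when those genes made up at least 5 of every 10000 UMIs, which took 5208 of 14276 B cells and 8439 of 29596 T cells, and 2538 B and 5906 T cells lay within 1 per 10000 of it. The median over all cells was 3.53 per 10000 in B and 3.25 in T cells, not far under that gate. Cells past the wide gate are called cycling by this rule alone, and their number does not give the share of dividing cells. A stricter gate of 20 per 10000, added after the data were seen, took 271 B cells, 191 of them germinal centre B-like, and 412 T cells, 244 of them Mki67-high T, with 209 B and 256 T cells between 15 and 25. Sums per library were compared with edgeR's quasi-likelihood test with the library as a block, and p-values were adjusted over all genes tested by the Benjamini-Hochberg method. The strict gate leaves 3 libraries for B cells. T cells past the strict gate carried 12.1, 11.6, 57.7, 45.6 and 65.7 CPM of B cell markers in the depleted anti-CTLA-4, depleted isotype, anti-CTLA-4, isotype and saline control libraries, and B cells past it carried 28.3, 37.3 and 6.99 CPM of T cell markers in the last 3. Cycling cells were deeper than the rest under the strict gate, with median UMIs of 8939.5 to 18473.5 against 3495.5 to 3921 in B cells of the 3 libraries, and of 17306 to 21715 against 5081 to 5961 in T cells, and the part of that depth in the changes was not tested.

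Ung was higher in cycling cells of both lineages. In T cells past the strict gate it stood at 55.2, 63.8, 44.6, 70.4 and 34.3 CPM in the depleted anti-CTLA-4, depleted isotype, anti-CTLA-4, isotype and saline control libraries, against 12.9, 11.6, 11.0, 13.3 and 14.4 CPM in the other T cells. No cycling value overlapped a non-cycling one, in the depleted libraries as in the others. The log2 fold change was 1.97 (SE 0.14, edgeR adjusted p = 1.2e-09), and 0.77 (SE 0.07, adjusted p = 2.7e-07) under the wide gate. In B cells Ung stood at 37.8, 55.6 and 32.6 CPM in cycling cells of the anti-CTLA-4, isotype and saline control libraries, against 12.5, 14.0 and 12.6 CPM in the rest, again with no overlap. Its log2 fold change in B cells was 1.58 (SE 0.18, edgeR adjusted p = 0.00013) under the strict gate and 0.72 (SE 0.13, adjusted p = 0.0032) under the wide one. Ung overlaps Alkbh2 in RefSeq, and the sources used here do not say whether counting used strand.

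The endonucleases Apex1 and Apex2 moved less. Apex1 stood at 66.6, 94.7, 65.9, 96.8 and 73.2 CPM in cycling T cells (strict gate, depleted anti-CTLA-4, depleted isotype, anti-CTLA-4, isotype, saline control), against 46.9, 41.2, 46.4, 41.9 and 42.2 CPM in the other T cells. In cycling B cells Apex1 stood at 97.6, 102 and 86.2 CPM in the anti-CTLA-4, isotype and saline control libraries, against 44.1, 46.2 and 37.9 CPM in the rest. Neither lineage overlapped between its 2 states, and Apex1 rose by log2 0.68 in T cells (SE 0.11, edgeR adjusted p = 6.5e-05) and by 1.03 in B cells (SE 0.12, adjusted p = 0.00015). Under the wide gate the log2 fold changes of Apex1 were 0.19 in T cells (SE 0.05, edgeR adjusted p = 0.0054) and 0.55 in B cells (SE 0.08, adjusted p = 0.00073). Apex2 rose under the strict gate alone, by log2 0.60 in T cells (SE 0.15, edgeR adjusted p = 0.0023) and by 0.63 in B cells (SE 0.22, adjusted p = 0.04), and its wide-gate fold changes of 0.12 and 0.10 had adjusted p = 0.19 and 0.79. Under the strict gate the B cell call of Apex2 was lost without the anti-CTLA-4 library (edgeR adjusted p = 0.19), without the isotype library (0.20), with no low-count filter (0.10) and with DESeq2 (0.098). Apex2 overlaps Tmem29, 3110067C02Rik, Mir3620, Alas2 and Pfkfb1 in RefSeq.

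Exo1, the resecting exonuclease, had the largest fold change of the members in both lineages. In cycling T cells (strict gate) it stood at 18.9, 26.3, 17.2, 16.0 and 11.9 CPM in the depleted anti-CTLA-4, depleted isotype, anti-CTLA-4, isotype and saline control libraries, against 0.359, 0.535, 0.716, 0.660 and 0.383 CPM in the other T cells. Among cycling B cells Exo1 stood at 19.3, 24.8 and 11.6 CPM in the anti-CTLA-4, isotype and saline control libraries, against 1.27, 0.736 and 1.00 CPM in the rest. The groups were far apart in every library. The log2 fold change of Exo1 was 4.97 in T cells (SE 0.29, edgeR adjusted p = 1.2e-10) and 4.12 in B cells (SE 0.40, adjusted p = 3.9e-05), and under the wide gate 2.86 (SE 0.28, adjusted p = 4.1e-07) and 1.99 (SE 0.30, adjusted p = 0.0012). Exo1 overlaps the RNA gene Gm23805 in RefSeq.

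Msh6, which recognises base mismatches, stood at 35.2, 45.3, 40.5, 43.2 and 37.3 CPM in cycling T cells (strict gate, same library order), against 14.0, 14.8, 15.2, 14.5 and 17.4 CPM in the other T cells. In cycling B cells it stood at 60.3, 49.0 and 81.5 CPM in the anti-CTLA-4, isotype and saline control libraries, against 27.6, 26.7 and 32.5 CPM in the rest. Both lineages separated without overlap, and Msh6 rose by log2 1.26 in T cells (SE 0.11, edgeR adjusted p = 3.6e-08) and by 0.96 in B cells (SE 0.15, adjusted p = 0.00073). Under the wide gate the fold change of Msh6 was 0.38 in T cells (SE 0.07, edgeR adjusted p = 0.00054) and 0.19 in B cells (SE 0.12, adjusted p = 0.38), so the call in B cells rests on the strict gate. Msh6 overlaps Fbxo11 in RefSeq.

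The translesion polymerases parted from each other between lineages. Polh stood at 20.4, 15.8, 22.0, 18.4 and 16.4 CPM in cycling T cells (strict gate, depleted anti-CTLA-4, depleted isotype, anti-CTLA-4, isotype, saline control), against 7.68, 6.83, 7.48, 7.05 and 7.74 CPM in the other T cells. Among cycling B cells Polh stood at 87.3, 58.9 and 46.6 CPM in the anti-CTLA-4, isotype and saline control libraries, against 10.1, 7.99 and 8.07 CPM in the rest. Non-cycling B and T cells thus held Polh at close levels, and cycling B cells held more of it than cycling T cells in each of the 3 libraries. Polh rose by log2 1.17 in T cells (SE 0.16, edgeR adjusted p = 8.3e-06) and by 2.77 in B cells (SE 0.18, adjusted p = 3.3e-06), and under the wide gate by 0.28 (SE 0.08, adjusted p = 0.01) and 1.14 (SE 0.17, adjusted p = 0.0012).

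Rev1 differed in direction between the lineages under the strict gate. It stood at 21.9, 27.0, 10.3, 15.2 and 25.4 CPM in cycling T cells of the depleted anti-CTLA-4, depleted isotype, anti-CTLA-4, isotype and saline control libraries, against 24.7, 26.7, 24.4, 20.3 and 24.2 CPM in the other T cells, ranges that overlap. The log2 fold change of Rev1 in T cells was -0.44 (SE 0.15, edgeR adjusted p = 0.019), a call lost when either the anti-CTLA-4 or the isotype library was left out (adjusted p = 0.11 and 0.053). In cycling B cells Rev1 stood at 80.1, 62.8 and 81.5 CPM in the anti-CTLA-4, isotype and saline control libraries, against 37.1, 37.2 and 34.5 CPM in the rest, with no overlap and a log2 fold change of 0.89 (SE 0.15, edgeR adjusted p = 0.00099). Under the wide gate Rev1 was not called in either lineage, with log2 fold changes of -0.05 in T cells (edgeR adjusted p = 0.48) and 0.23 in B cells (adjusted p = 0.13). Rev1 overlaps Eif5b in RefSeq.

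Trp53bp1 did not rise with cycling in either lineage. It stood at 20.0, 25.3, 28.8, 32.0 and 31.4 CPM in cycling T cells (strict gate), against 26.4, 25.6, 28.6, 26.7 and 28.5 CPM in the other T cells, in the library order used above, and the groups overlapped. In cycling B cells Trp53bp1 stood at 20.2, 19.6 and 30.3 CPM in the anti-CTLA-4, isotype and saline control libraries, against 28.3, 26.9 and 31.1 CPM in the rest, lower in each library and overlapping across them. The log2 fold change of Trp53bp1 was -0.20 in T cells (SE 0.12, edgeR adjusted p = 0.14) and -0.50 in B cells (SE 0.17, adjusted p = 0.042), and near 0 under the wide gate. The B cell call of Trp53bp1 was lost without the anti-CTLA-4 library (edgeR adjusted p = 0.27), without the isotype library (0.24), with DESeq2 (0.13) and without cells with UMIs of the other lineage (0.060). Trp53bp1 overlaps Tubgcp4 and Map1a in RefSeq.

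Counted together under the wide gate, 5 members were higher and 0 lower in cycling T cells (20.3% of 13345 genes were higher and 18.7% lower), with a median log2 fold change of 0.24 over the members and -0.02 over all genes. In cycling B cells 4 were higher and 0 lower (7.77% and 2.25% of 11930 genes), with a median of 0.39 over the members and -0.02 over all genes. At an unadjusted p under 0.05 edgeR found 0 members lower in either lineage, and DESeq2 also called 0 lower. Under the strict gate 6 members were higher and 1 lower in T cells (26.7% and 29.8% of 13418 genes), with medians of 0.93 for the members and -0.08 for all genes, and 7 were higher and 1 lower in B cells (21.9% and 22.5% of 12057 genes), with medians of 1.00 and -0.08.

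**Figure D3:**
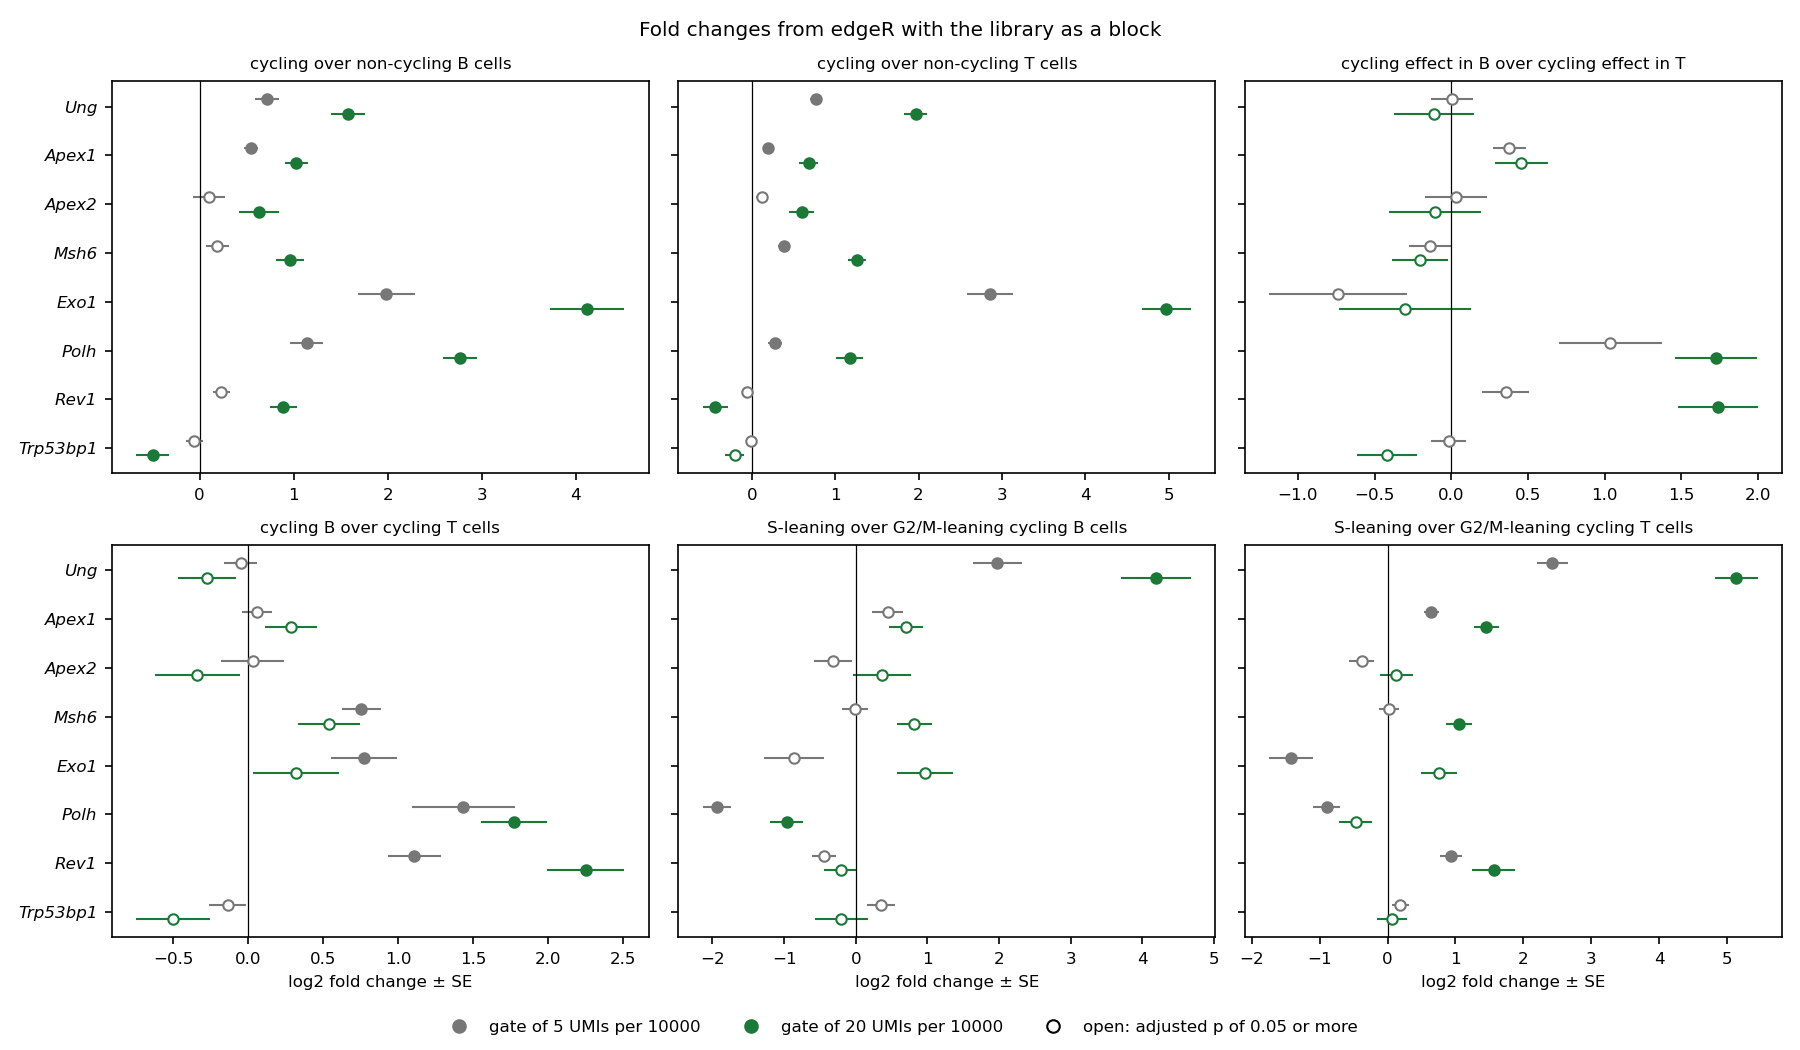
Log2 fold change ± SE from edgeR for each gene in 6 comparisons, with the wide gate of 5 UMIs per 10000 in grey and the strict gate of 20 in green. Filled points have an adjusted p under 0.05 and open points do not. Exo1 lies furthest right in both cycling panels, Polh and Rev1 are the members filled at the strict gate in the panels that set B against T, and Ung lies furthest right in both S over G2/M panels.

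Cycling B cells were then set against cycling T cells of the same libraries. Under the wide gate 4 members were higher and 0 lower in B cells (24.6% of 12780 genes were higher and 25.5% lower). They were Polh (log2 1.43, SE 0.34, edgeR adjusted p = 0.0061), Rev1 (1.11, SE 0.18, adjusted p = 0.00049), Exo1 (0.77, SE 0.22, adjusted p = 0.015) and Msh6 (0.75, SE 0.13, adjusted p = 0.00075). Under the strict gate Rev1 (2.25, SE 0.26, adjusted p = 6.6e-06) and Polh (1.77, SE 0.22, adjusted p = 1.6e-05) were higher and no member was lower, against 13.8% of 9410 genes higher and 16.2% lower. By edgeR and by DESeq2 no member was lower under either gate, also at an unadjusted p under 0.05. B cells past the strict gate carried 1244 to 2357 CPM of germinal centre markers and the T cells 77.5 to 94.4 CPM. The median log2 difference of the members was 0.41 under the wide gate and 0.30 under the strict gate, and 0.02 and -0.02 over all genes.

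The difference between the cycling effects in B and T cells was tested as an interaction. Under the wide gate it was called for 0 members, where edgeR found 3 higher and 0 lower at an unadjusted p under 0.05 and DESeq2 called 0 with 2 higher unadjusted, and 0.959% of 13349 genes were called higher and 1.09% lower. Under the strict gate it was called for Rev1 (log2 1.74, SE 0.26, edgeR adjusted p = 0.00047) and Polh (log2 1.72, SE 0.27, adjusted p = 0.00063), both larger in B cells, where 7.22% of 13527 genes were called higher and 6.00% lower. DESeq2 called the same count of 2 at that gate. Wide-gate values were 1.04 for Polh (SE 0.34, edgeR adjusted p = 0.13) and 0.35 for Rev1 (SE 0.15, adjusted p = 0.29). The members' median was 0.02 under the wide gate and -0.11 under the strict one, against 0.04 and 0.08 over all genes.

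Inside the strict gate, cells of the germinal centre B-like class could be set against other cycling B cells in 2 libraries, with 107 and 47 against 32 and 27 cells in the anti-CTLA-4 and isotype libraries. Polh was 7.17-fold (95% interval 3.02 to 22.3) and 2.45-fold (1.44 to 4.36) higher in the germinal centre B-like cells, and Rev1 2.88-fold (1.57 to 5.88) and 5.26-fold (2.73 to 11.4). These were the 2 members past 1.5-fold higher in both libraries, where 13.8% of 7173 genes were, and no member was past 1.5-fold lower in both, where 6.64% were. Ung stood at 0.949 and 0.300 of the other cycling B cells, with an interval of 0.184 to 0.480 in the isotype library, and Msh6 at 2.12 and 0.628. Ung was thus lower in both libraries, with an interval that took in 1 in the anti-CTLA-4 library, and Msh6 changed direction. In the anti-CTLA-4 and isotype libraries, 61 of the 107 and 23 of the 47 germinal centre B-like cells held more S than G2/M phase UMIs. So did 88 of 139 and 43 of 74 among all B cells past the gate. The part of phase in these ratios was not tested. Against T cells past the same gate, the cycling germinal centre B-like cells held 4.61-fold and 4.13-fold more Polh and 8.68-fold and 5.96-fold more Rev1 (13.3% of 8216 genes were at least 1.5-fold higher in both). Germinal centre B-like cells below the strict gate, 51 cells in the anti-CTLA-4 library, still held 6.60-fold more Polh (95% interval 4.06 to 10.3) and 3.01-fold more Rev1 (2.14 to 4.13) than follicular B-like cells below it, while Ung (1.56-fold) and Apex1 (1.5-fold) stood closer and 0 UMIs of Exo1 were counted, which allow up to 7.93 CPM.

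Within cycling cells the members divided by phase, with each cell called S-leaning or G2/M-leaning by which of the 2 gene lists was larger. Ung was a gene of the S-leaning cells in both lineages. T cells past the strict gate held 85.2, 111, 71.5 and 97.8 CPM of Ung when S-leaning in the depleted anti-CTLA-4, depleted isotype, anti-CTLA-4 and isotype libraries, against 4.09, 0.816, 3.47 and 2.77 CPM when G2/M-leaning. The log2 fold change of Ung was 5.14 (SE 0.31, edgeR adjusted p = 4.1e-08), and 2.42 (SE 0.23, adjusted p = 1.3e-07) under the wide gate. In B cells Ung stood at 63.0 and 87.8 CPM when S-leaning in the anti-CTLA-4 and isotype libraries, against 0 UMIs, which allow up to 3.38 CPM, and 9.54 CPM when G2/M-leaning (log2 4.19, SE 0.49, edgeR adjusted p = 2.4e-05; 1.97, SE 0.34, adjusted p = 0.0033, under the wide gate).

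Polh leaned the other way in B cells. It stood at 61.5 and 43.3 CPM in S-leaning B cells past the strict gate in the anti-CTLA-4 and isotype libraries, against 126 and 81.0 CPM in G2/M-leaning ones. The log2 fold change of Polh was -0.97 (SE 0.23, edgeR adjusted p = 0.018, from 2 libraries), and -1.94 (SE 0.20, adjusted p = 7.9e-05, from 3) under the wide gate. Of the G2/M-leaning B cells 91 of 107 were germinal centre B-like under the strict gate and 108 of 455 under the wide one, against 100 of 164 and 155 of 4753 S-leaning B cells, and the part of that make-up in the difference was not tested. In T cells Polh fell by 0.90 on the log2 scale under the wide gate (SE 0.20, edgeR adjusted p = 0.0021) and had a log2 fold change of -0.47 (adjusted p = 0.18) under the strict one. Rev1 was higher in S-leaning T cells, by log2 1.56 (SE 0.32, edgeR adjusted p = 0.0027) under the strict gate and 0.94 (SE 0.16, adjusted p = 0.00018) under the wide one. In B cells its values were -0.21 (edgeR adjusted p = 0.72) and -0.45 (adjusted p = 0.11), and the difference between the lineages was not tested.

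Apex1 was higher in S-leaning T cells under both gates (log2 1.46, SE 0.19, edgeR adjusted p = 5.2e-05 under the strict gate and 0.64, SE 0.11, adjusted p = 0.00016 under the wide one), and Msh6 under the strict gate (1.05, SE 0.19, adjusted p = 0.00088). Exo1 changed sign with the gate. It fell by 1.42 on the log2 scale in S-leaning T cells under the wide gate (SE 0.32, edgeR adjusted p = 0.0027) and stood at 0.76 (SE 0.27, adjusted p = 0.053) under the strict one. In T cells 3 members were higher and 2 lower under the wide gate (13.7% and 16.3% of 11307 genes) and 4 higher and 0 lower under the strict one (13.5% and 12.3% of 8598 genes), where edgeR at an unadjusted p under 0.05 found 5 higher and 0 lower and DESeq2 called 3 and 0. In B cells 1 was higher and 1 lower under both gates, against 4.61% and 7.26% of 10649 genes under the wide gate and 1.93% and 2.96% of 7838 genes under the strict one. DESeq2 called 0 members in B cells under the strict gate. Medians of the members were 0.10 (T) and -0.17 (B) under the wide gate and 0.91 and 0.53 under the strict one, and those of all genes were 0.03, 0.03, -0.03 and 0.01.

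Lists of 51 further genes of the same pathways were counted under the same tests. Of 12 genes of uracil excision and abasic sites, 9 rose and 0 fell in cycling T cells and 8 rose and 0 fell in cycling B cells under the strict gate (medians 1.05 and 1.97, against 8 and 7 rising under the wide one), led by Lig1, the ligase that seals repair and Okazaki nicks (log2 3.86 in T and 3.64 in B cells), Fam72a, which lowers UNG2 protein (3.47 in B cells), and Dut, which clears dUTP (3.36 in B cells). Under the same gate 26.7% of all genes rose and 29.8% fell in T cells, and 21.9% rose and 22.5% fell in B cells, and each list's counts are to be read against those shares. Of 11 genes of mismatch repair and lesion bypass, 5 rose and 2 fell in T cells and 6 rose and 0 fell in B cells (medians 0.18 and 0.66). Polq, a break-joining polymerase, rose by 3.31 in T cells and Poli, a translesion polymerase, fell by 0.99. Of 17 genes of the break response and end joining, 5 rose and 4 fell in T cells and 7 rose and 3 fell in B cells (medians -0.13 and 0.43). H2afx, the histone marked at breaks, rose by 3.19 in T cells. The shieldin genes Shld1 (T cells, -1.11) and Shld2 (B cells, -0.93), which act with 53BP1, fell. Other genes of this list fell in the same tests, Xrcc4 in T cells and Paxx and Dclre1c in B cells. The fall was thus not limited to shieldin genes. Of 11 AID cofactor and switch transcription genes, 5 rose and 4 fell in T cells and 5 rose and 1 fell in B cells (medians 0.12 and 0.07).

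Between cycling B and cycling T cells under the strict gate, Hmces, which shields abasic sites, was higher in B cells by log2 3.07, Mbd4, a glycosylase for U and T in mismatches, by 2.37 and Lig4, the end-joining ligase, by 2.23, while Polk, a translesion polymerase, was lower (log2 fold change -1.05). Counts were 4 higher and 0 lower of 10 tested for uracil excision and abasic sites, 3 and 1 of 11 for mismatch repair and lesion bypass, 2 and 1 of 15 for the break response and end joining, and 0 and 0 of 11 for AID cofactors and switch transcription, where 13.8% of all genes were higher and 16.2% lower. The cycling effect was larger in B than in T cells for Lig4 (2.50), Hmces (2.00) and Poli (1.88), and smaller for Parp1, a sensor of strand breaks (-0.78), and Fen1, a flap endonuclease (-0.54). Within cycling T cells under the strict gate the S-leaning cells held more Rpa2, a single-strand binding subunit (1.29), and Parp1 (1.14), and less H2afx (-1.77). These lists share genes with replication, and all were chosen with earlier results of these data known.

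The heavy chain class that a cell carried could be read from the receptor libraries of the anti-CTLA-4, isotype and saline control mice. Among germinal centre B-like cells 91 carried an IgG heavy chain and 71 an IgM or IgD heavy chain. Ung stood at 21.6 CPM in the IgG cells and 40.8 CPM in the IgM or IgD cells, a ratio of 0.528 (95% interval 0.331 to 0.831, from 33 and 53 UMIs). The ratio was 0.539 (0.294 to 0.964) in the anti-CTLA-4 library and 0.491 (0.201 to 1.14) in the isotype library, and the saline control library had 10 and 6 such cells. With cells called doublets kept in, it was 0.627 (0.430 to 0.907). Ung was the 1 member past 1.5-fold, against 15.5% of 8613 genes either way. Polh (0.992), Rev1 (1.00), Exo1 (1.05), Apex1 (0.790), Apex2 (0.820), Msh6 (1.12) and Trp53bp1 (0.881) had intervals that took in 1 over the 3 libraries. For Apex1 the interval left out 1 in the isotype library (0.643, 0.415 to 0.989) and with cells called doublets kept in (0.730, 0.582 to 0.914). Over all B lineage cells, 150 with IgG and 12232 with IgM or IgD, Ung stood at 0.896 (0.641 to 1.22), and the members past the fold were Exo1 (6.35), Polh (4.61) and Trp53bp1 (0.473). Of 13023 genes compared in those cells, 2384 were at least 1.5-fold higher in the IgG cells and 5021 at least 1.5-fold lower. Passing the fold was thus common there.

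Between libraries of 1 condition each, 0 members were past 1.5-fold in follicular B-like and conventional CD4 T cells, in any comparison that those cells allowed. Of all genes 6.42 to 7.26% passed it in follicular B-like cells and 5.46 to 7.57% in conventional CD4 T cells, so this count is near those shares. For isotype over saline control, 4 of the 7 members with at least 20 UMIs in follicular B-like cells had an interval that left out 1, short of the fold. The intervals cover counting error only, and the share of all genes with such an interval was not computed. Of 373 member ratios with at least 20 UMIs, over all comparisons and cell sets, 67 were past 1.5-fold and 33 of these also had an interval that left out 1. Over all genes 5.26 to 47.1% passed the fold, by comparison and set. No share over all genes was computed for the intervals, so the pooled counts cannot be read against a background. The share of all genes past that fold was small in large classes and large in small ones, and each count below is given with it.

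For anti-CTLA-4 over isotype, 1 member was past 1.5-fold in germinal centre B-like cells (15.7% of genes), 3 in Treg-like cells (10.7%), 1 in CD8 T-like cells (6.78%), 1 in T cells past the wide gate (7.73%), 1 in T cells past the strict gate (24.5%), 4 in Mki67-high T cells (28.0%), 2 in Srm-high B cells (12.2%), and 0 in follicular B-like cells (6.42%), conventional CD4 T cells (6.43%), and B cells past the wide (8.50%) and strict gates (16.5%). In memory-like or innate-like B cells 1 member passed the fold (11.8%) and in recently activated B-like cells 0 did (11.1%). Ung was past the fold in 6 of these sets, lower in the anti-CTLA-4 library in 5 and higher in Treg-like cells. It stood at 44.6 CPM in the anti-CTLA-4 library against 70.4 CPM in the isotype library in T cells past the strict gate (ratio 0.634, 95% interval 0.453 to 0.883), at 27.6 against 57.3 CPM in Mki67-high T cells (0.481, 0.300 to 0.755), at 10.0 against 15.5 CPM in CD8 T-like cells (0.647, 0.472 to 0.882), at 35.9 against 58.7 CPM in Srm-high B cells (0.611, 0.443 to 0.836) and at 17.3 against 26.3 CPM in T cells past the wide gate (0.657, 0.532 to 0.810). These T cell sets share cells. In Treg-like cells Ung stood at 9.97 CPM against 5.04 CPM, from 26 and 10 UMIs, a ratio of 1.98 whose interval took in 1 (0.923 to 4.6). Polh passed the fold in Treg-like cells (1.52, 0.649 to 3.84) and Mki67-high T cells (1.51, 0.833 to 2.79), again with intervals that took in 1. Apex1 was lower in Mki67-high T cells (0.50, 0.346 to 0.712). In B cells past the strict gate Ung was at 0.680 (0.497 to 0.930) and Polh at 1.48 (1.15 to 1.93), short of the fold. Apex2 was higher in Treg-like cells, at 21.9 CPM against 12.6 CPM (1.73, 1.07 to 2.90). Msh6 in germinal centre B-like cells was at 60.1 CPM in the anti-CTLA-4 library against 37.1 CPM in the isotype library (1.62, 1.13 to 2.36), a ratio that became 1.10 with cells called doublets kept in.

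In the same contrast after B cell depletion Ung was not past the fold in any cell set compared. The ratio of Ung was 0.832 (0.601 to 1.15) in Mki67-high T cells and 1.10 (0.900 to 1.35) in CD8 T-like cells. Whether the contrasts with and without depletion differ was not tested. For depleted anti-CTLA-4 over depleted isotype, 1 member was past the fold in T cells past the wide gate (6.04% of genes), 3 in germinal centre B-like cells (29.8%), and 0 in T cells past the strict gate (11.0%), Treg-like (7.47%), CD8 T-like (5.26%) and conventional CD4 T cells (5.46%). In Mki67-high T cells 1 was past it (11.2%), Msh6 at 29.2 CPM against 46.3 CPM (0.630, 0.4445 to 0.884), and in B cells past the wide gate 3 (28.6%), each with an interval that took in 1. In T cells past the strict gate Ung stood at 55.2 CPM with anti-CTLA-4 after depletion and 63.8 CPM with isotype after depletion, a ratio of 0.865 (0.691 to 1.08). Apex1 was the member with an interval below 1 there, at 66.6 CPM against 94.7 CPM (0.703, 0.578 to 0.853). In T cells past the wide gate it was Exo1 that passed the fold, at 3.43 CPM against 5.87 CPM (0.585, 0.410 to 0.829).

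B cell depletion was also set against intact mice under each antibody. Under anti-CTLA-4 the counts past the fold were 1 in T cells past the strict gate (12.4% of genes), 3 in germinal centre B-like cells (36.0%), and 0 in T cells past the wide gate (7.29%), Treg-like (9.10%), CD8 T-like (7.22%) and conventional CD4 T cells (7.26%), with 1 in Mki67-high T cells (14.5%), 3 in memory-like or innate-like B cells (42.6%) and 3 in B cells past the wide gate (39.6%). Under isotype they were 2 in T cells past the strict gate (17.9%), 2 in T cells past the wide gate (9.59%), 1 in Treg-like cells (10.7%), 2 in germinal centre B-like cells (30.8%), and 0 in CD8 T-like (8.01%) and conventional CD4 T cells (7.57%), with 2 in Mki67-high T cells (21.0%) and 6 in B cells past the wide gate (47.1%). In those B cells Polh was 2.25-fold (1.45 to 3.34) and 4.03-fold (2.50 to 6.23) higher in the depleted libraries under anti-CTLA-4 and isotype, and Rev1 2.09-fold (1.49 to 2.86) and 2.06-fold (1.35 to 3.03). Germinal centre B-like cells made up 30 of 39 and 16 of 26 of them in the depleted anti-CTLA-4 and depleted isotype libraries, against 138 of 2028 and 57 of 1564 in the anti-CTLA-4 and isotype libraries, and the part of that make-up in the ratios was not tested. Rev1 in T cells past the strict gate was higher in both depleted libraries, at 21.9 CPM in depleted anti-CTLA-4 against 10.3 CPM in anti-CTLA-4 (2.13, 1.19 to 4.05) and at 27.0 CPM in depleted isotype against 15.2 CPM in isotype (1.78, 1.07 to 3.11), and the saline control library, with its B cells, stood at 25.4 CPM. Ung in Treg-like cells stood at 18.0 CPM in depleted isotype against 5.04 CPM in isotype (3.58, 1.83 to 7.80, from 67 and 10 UMIs). The germinal centre B-like cells left after depletion, 39 and 21 cells, held less Apex1 than those of intact mice, at 54.2 CPM in depleted anti-CTLA-4 against 88.6 CPM in anti-CTLA-4 (0.612, 0.379 to 0.944) and at 34.8 CPM in depleted isotype against 91.4 CPM in isotype (0.381, 0.185 to 0.712). Their Polh and Rev1 levels are given by library above.

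Isotype over saline control set tumour-bearing against tumour-free mice. The labels name isotype IgG for the tumour-bearing mice alone, so tumour and antibody cannot be told apart. Here 1 member was past the fold in germinal centre B-like cells (28.7% of genes), 2 in B cells past the wide gate (11.2%) and 4 past the strict gate (26.7%). In Treg-like cells 2 were past it (11.5%), in T cells past the wide gate 1 (9.15%) and past the strict gate 3 (28.2%). It was 0 in follicular B-like (7.26%), conventional CD4 T (6.69%) and CD8 T-like cells (6.90%). In Srm-high B cells 4 were past the fold (15.1%), in recently activated B-like cells 1 (11.0%) and in memory-like or innate-like B cells 1 (12.4%). In Srm-high B cells Exo1 stood at 10.1 CPM in the isotype library against 1.20 CPM in the saline control library, from 22 and 2 UMIs (8.39, 2.06 to 73.6), and Ung at 58.7 against 39.1 CPM (1.5, 1.11 to 2.06). In recently activated B-like cells Ung stood at 15.1 CPM against 8.05 CPM (1.88, 1.13 to 3.22). Msh6 in germinal centre B-like cells was lower, at 37.1 CPM in the isotype library against 97.7 CPM in the saline control library (0.380, 0.232 to 0.626), and lower in B cells past the strict gate, at 49.0 CPM against 81.5 CPM (0.602, 0.398 to 0.926). Ung in T cells past the strict gate was higher, at 70.4 CPM against 34.3 CPM (2.05, 1.28 to 3.40). Polh in B cells past the wide gate was higher, at 19.0 CPM against 10.7 CPM (1.77, 1.33 to 2.38), and germinal centre B-like cells made up 57 of 1564 of these cells in the isotype library and 22 of 1551 in the saline control library.

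**Figure D4:**
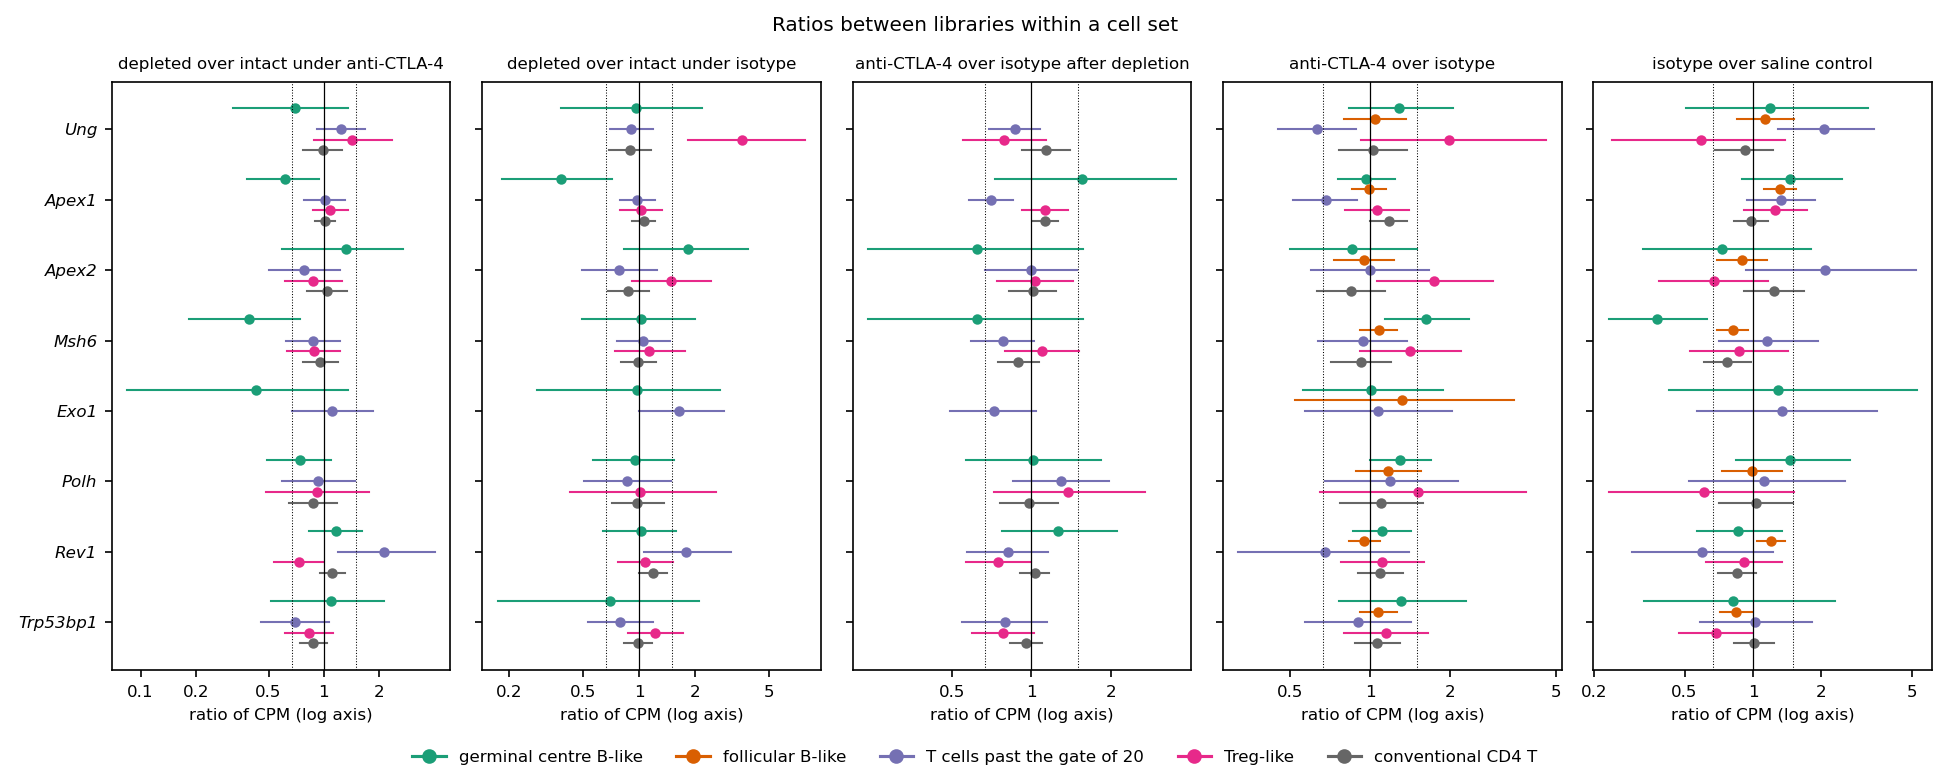
Ratio of CPM between libraries (log axis) for each gene in 5 cell sets, with exact 95% counting intervals, a solid line at 1 and dotted lines at 1.5-fold either way. Ratios with fewer than 20 UMIs over both libraries, or with no UMI on 1 side, are not drawn. Conventional CD4 T and follicular B-like points lie inside the dotted lines in every panel that has them, and the points outside belong to the smaller germinal centre B-like, Treg-like and cycling T sets.

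The genes whose levels ran most like each member were found over 64 class and library sums from 16 classes, by Pearson's r of log2(CPM + 5) among 11205 genes. The sums share libraries and classes, so r is a description. Exo1 was nearest to Bub1b (0.93), Ccnb2 (0.93, a gene of the G2/M list) and Neil3 (0.93). Apex1 was nearest to Fbl (0.86), Rsl24d1 (0.82) and Hnrnpa1 (0.82), and Ung to Ipo5 (0.78), Clns1a (0.78) and Hnrnpu (0.77), with r = 0.71 between Ung and Apex1. Polh was nearest to Mybl1 (0.86, a germinal centre marker used to name the class) and Rassf6 (0.84), and Rev1 to Bicra (0.85), Scaf11 (0.84) and Rere (0.84). Msh6 was nearest to Sfpq (0.83), Nup205 (0.81) and Srsf10 (0.81), Apex2 to Pde12 (0.79), Mbnl3 (0.73) and Actn4 (0.70), and Trp53bp1 to Ythdc1 (0.76), Arntl (0.75) and Tent4b (0.74).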

How the data were processed

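Droplet (10x 5' V2) expression libraries from 5 conditions and B cell receptor libraries from 3 of them were used. The deposited matrices hold raw UMI counts per gene and barcode, and per the file headers they come from Cell Ranger 7.0.1. Per the submitters' processing notes, bcl2fastq 2.20.0 and the mm10 genome were used. The receptor contig files deposited by the authors give UMI counts per contig, from which each cell's heavy chain class was read. Whether counting used strand is not given in the sources used here.

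Cells with at least 500 genes and at most 10% mitochondrial UMIs were kept, and Scrublet scores, run in Scanpy, removed the top 0.8% per 1000 barcodes (650 to 1112 cells per library). Clustering used Scanpy 1.11.5 and leidenalg 0.10.2 (2000 variable genes, 30 components, 15 neighbours, resolution 1), and clusters were named from marker lists. A cluster lost its name when its 10 leading genes held more markers of another class than of its own. Clusters of 2406, 1840 and 338 cells named CD8 T-like by markers were moved to a class of other T cells. A cluster of 45 follicular B-like cells was left unnamed. The CD8 T-like values leave these moved cells out. Counts were summed per library and class, with at least 20 cells, and given as CPM with exact 95% Poisson intervals. Ratios have exact conditional intervals and, over all genes, need 20 UMIs over both sides to enter a count past 1.5-fold. A floor of 3 counts is given for 0 UMIs. All 8 members were to be named, with the 3 most changed genes of the pathway lists and the 3 most alike genes per member. The rule picks 1 further gene, which is not reported here. Tests used edgeR 4.0.16 (quasi-likelihood, library as block, TMM) in R 4.3.3, with DESeq2 1.42.0 as an alternative, at an adjusted p of 0.05. On sums simulated for the wide gate at 1 fixed dispersion, edgeR recovered 95 to 100% of 200 genes changed 2-fold. The changed genes were expected at 20 or more UMIs in each sum, and 3 to 13 unchanged genes were called. The strict gate and changes in genes of lower counts were not simulated. Cells of 1 library share their source, and p-values over libraries treat conditions as blocks, so they measure how evenly a difference recurs across the libraries. Nothing says that libraries came from separate animals of a group, since each group has 1 library. Alternatives were other gates (2, 10, 20 and 30 per 10000, and G2/M genes alone at 3), RLE scaling, no low-count filter, DESeq2, leaving out each library, keeping doublets, stricter cells (1000 genes, 5% mitochondrial) and finer clusters (resolution 2). The members and the lists were chosen with earlier results of these data known. The gates of 20 and 30 and their combinations were added after the data were seen.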

Additional observations from a re-analysis of the deposited data

Results flagged for a closer look

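The cycling effect of 2 members differed between B and T cells by the interaction test under the strict gate of 20 UMIs per 10000, in the 3 libraries with enough B cells. The difference in log2 fold change, B minus T, was 1.72 for Polh (SE 0.27, edgeR adjusted p = 0.00063) and 1.74 for Rev1 (SE 0.26, edgeR adjusted p = 0.00047). Polh was higher in cycling than in other cells in both lineages and in each of the 3 libraries, and Rev1 was higher in cycling B cells in each of the 3 and lower in cycling T cells in 2 of them. Under the wide gate of 5 neither was called, at 1.04 (adjusted p = 0.13) and 0.35 (adjusted p = 0.29). B cells past the strict gate carried 1244 to 2357 CPM of germinal centre markers against 77.5 to 94.4 CPM in T cells, and the part of that make-up in the difference was not tested by the interaction.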

How the results depend on the processing

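No paired analysis was possible because each condition has 1 library, all with replicate number 1, so conditions cannot be matched by replicate. The tests between cell states within libraries kept the library as a block throughout. The number of called members depended mainly on the gate that defines a cycling cell, and the cause was not tested. In T cells 5 members were higher past the gate of 5 UMIs per 10000, 3 past the gate of 2 and 6 past the gate of 20. In B cells 4 were higher past the gate of 5, 1 past the gate of 2, and 7 past the gates of 20 and 30 and past the gate of 20 with RLE scaling, kept doublets, stricter cells or no cells with UMIs of the other lineage. One more member, against 0 past the gate of 5, was lower (1 in each lineage) past the gates of 20 and 30, the gate on G2/M genes alone and the gate of 20 with RLE scaling, no low-count filter, kept doublets or stricter cells, and in T cells also with DESeq2 or without cells with UMIs of the other lineage. Between cycling B and cycling T cells, 4 members were higher in B cells past the gate of 5, against 2 past the gates of 20 and 30, the G2/M gate and the gate of 20 with RLE scaling, DESeq2, stricter cells or no cells with UMIs of the other lineage. The interaction called 0 members past the gate of 5, 1 without the saline control library, 1 past the gate of 10, 3 past the gate of 20 with doublets kept, and 2 past the gates of 20, 30 and G2/M genes and the other versions of the gate of 20 (RLE scaling, no filter, DESeq2, stricter cells, no cells with UMIs of the other lineage).

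Between S-leaning and G2/M-leaning T cells, 3 members were higher, and 5 past the gate of 30 and the gate of 20 with no filter, kept doublets or stricter cells. There, 2 were lower, against 0 past the gates of 10, 20 and 30 and every version of the gate of 20. Exo1 changed sign in that comparison, with a log2 fold change of -1.42 past the gate of 5 and of 0.030 past 10, 0.76 past 20 and 0.99 past 30. Past the gate of 20 it was 0.77 with RLE scaling, 0.80 with no filter, 0.69 with DESeq2, 0.77 with doublets kept, 1.10 with stricter cells and 0.81 without cells with UMIs of the other lineage, and 0.57 to 0.89 over libraries left out, which past the gate of 5 gave -1.59 to -1.30. In B cells 1 was higher and 1 lower. The higher count was 2 with no filter and 2 without the anti-CTLA-4 library, and 0 past the gate of 20 with DESeq2. The lower count was 2 without the saline control library, and 0 past the gate of 30 and the gate of 20 with DESeq2, doublets kept or no cells with UMIs of the other lineage.

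Leaving out 1 library in turn past the gate of 5 gave 5 higher members in T cells, 3 to 4 in B cells, 3 to 4 in cycling B over T cells and 0 to 1 in the interaction. Past the gate of 20 it gave 6 higher and 0 to 1 lower in T cells, 6 to 7 and 0 to 1 in B cells, 2 in B over T cells and 2 in the interaction, and 3 to 5 higher and 0 lower in S-leaning T cells. Over conventional CD4 T, Treg-like, CD8 T-like and T cells past the wide gate, finer clusters (resolution 2) gave 3 ratios past 1.5-fold in place of 0 in the depleted over the intact anti-CTLA-4 library and 3 in place of 1 in anti-CTLA-4 over isotype after depletion, and 1 in the first without cells with UMIs of the other lineage. Between IgG and IgM or IgD cells 3 members over all B lineage cells passed the fold, in place of 1 in germinal centre B-like cells, and Ung was not among the 3 (0.896, against 0.528). Over all B lineage cells 2384 of 13023 genes were this much higher and 5021 this much lower. In germinal centre B-like cells 15.5% of 8613 genes passed the fold either way. Depth limits Exo1 most, since several of its ratios rest on fewer than 20 UMIs.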
